A study of Homo sapiens with 24 samples.

Results

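Exposure of SU-DHL-4 lymphoma cells to the BET inhibitor AZD5153 (AZD) was compared directly with exposure to the SYK inhibitor Entospletinib (Ento), with 3 arrays of each agent and all 25575 rows of the gene table. These are 6 of the 12 SU-DHL-4 arrays and 6 of the 24 arrays of the series, chosen by their treatment label alone, so that the difference itself used no DMSO array. SU-DHL-4 is an established human diffuse large B-cell lymphoma line. The cells were kept for 72 h in 0.01 µM AZD or in 1 µM Ento. The remaining SU-DHL-4 arrays, from cells in the solvent DMSO or in both agents together at those doses (Ento+AZD), gave the estimate of the spread and the levels on either side of the contrast. The Burkitt lymphoma line DG-75 went through the same 4 treatments, and its 6 single-agent arrays served as the second line in which the contrast could be taken. The doses of the agents differ by design, so a difference between AZD and Ento is a difference between these exposures and not between equal doses, and each line stands for the tumour of 1 patient.

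SYK is the kinase that carries the signal of the B-cell receptor from its CD79 chains to the adaptor BLNK, calcium release, the MAP kinases and PI3K, which in turn keeps FOXO factors out of the nucleus. BET proteins are readers of acetylated histones that bring the elongation factor P-TEFb to promoters and enhancers, and their inhibitors release them from chromatin. SU-DHL-4 is classed with the germinal centre B cells, which are held in their state by transcription factors such as BCL6, BACH2 and PAX5 and positioned by receptors such as CXCR4 and CXCR5. Ento therefore acts at the start of a signalling chain, whereas AZD acts on the transcription of genes.

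Levels below are log2 values after robust multi-array averaging, and differences are AZD minus Ento on the same log2 scale, so that -1 is a level 2-fold lower under AZD. The replicate arrays of AZD correlated at r = 0.981 to 0.989 with each other and those of Ento at 0.985 to 0.991 over all rows, and the medians of the 6 arrays lay between 4.89 and 5.03. The 12 measured B-cell identity genes had a median level of 10.43. Their median difference was -0.26, with 4 (33.3%) having AZD arrays below Ento arrays and 0 above, and 0 called. The 11 T and NK cell markers had a median level of 3.51 and the 10 myeloid markers one of 4.33, and no gene of either list was called. The median difference was 0.20 for the T and NK cell list, with 2 members (18.2%) having AZD arrays above Ento arrays and 0 below, and -0.12 for the myeloid list, with 1 (10%) above and 0 below, against 5.18% above and 6.3% below over all rows. Outside those lists, and named after their values were seen, the NK receptor genes KLRC3 (-1.94, adjusted p = 0.00445) and KLRC4-KLRK1 (-1.41, adjusted p = 0.0491) and the myeloid genes MPEG1 (-1.78, adjusted p = 0.0233), AIF1 (-1.45, adjusted p = 0.0144) and MSR1 (-1.02, adjusted p = 0.0105) were called lower under AZD. KLRC3 was called in all 6 fits with 1 array left out, MSR1 in 3, KLRC4-KLRK1 and AIF1 in 2 and MPEG1 in 1, and MPEG1 was not called without the replicate number in the model (adjusted p = 0.559). All of these genes were measured in cultures of a lymphoma cell line, and the part of other cell types in these differences was not tested. The stromal and epithelial list had a median level of 5.56 and no called member, but DCN stood at 9.14 and PECAM1 at 7.38 over the 12 arrays. PECAM1 differed by -1.27 between the agents (adjusted p = 0.0647) and DCN by -0.66 (adjusted p = 0.053), while the list of 13 had a median difference of 0.11, with 3 members (23.1%) having AZD arrays above and 0 below, beside the same 5.18% and 6.3%. Levels of different genes on an array depend on their probes, so that the medians of these lists are descriptions and cannot be set against each other as amounts of RNA. Since whole cultures were measured, fewer cells of a kind and less RNA per cell cannot be told apart.

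Most of the genes that differed between the agents were lower under AZD than under Ento. By limma, 97 of 25575 rows (0.379%) passed an adjusted p of 0.05 together with a log2 fold change beyond 1 in either direction, and these are referred to as called. Of these, 92 (0.36%) were lower under AZD than under Ento, and 5 (0.0196%) were higher. The genes called lower had a median difference of -1.31, a 2.48-fold lower level, and reached -3.56. At an unadjusted p under 0.05 there were 2499 rows. In 92 of the 97 called genes the 3 AZD arrays and the 3 Ento arrays did not overlap, and in all 97 the 3 differences between equally numbered arrays had the same sign. The genes were chosen on these same arrays for a large difference with a small error. Both counts follow largely from that choice and add no separate evidence. Over all rows, 5.18% had the 3 AZD arrays above the 3 Ento arrays and 6.3% had them below, so that these nonoverlapping rows were far more balanced between the directions than the calls. The number called rested on the arrays used: it was 59, 149 and 44 without AZD replicate 1, 2 and 3, and 39, 108 and 31 without Ento replicate 1, 2 and 3. Higher genes were 11 of the 59 without AZD replicate 1 and 0 to 5 in the other 5 of these fits. The number called was 65 without the replicate number in the model, 8 with the 6 single-agent arrays alone, and 8, 112 and 5 when replicate number 1, 2 or 3 was left out of all 4 treatments. 27 genes were called in each of the 6 fits with 1 array left out, all of them lower under AZD.

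**Figure D1:**
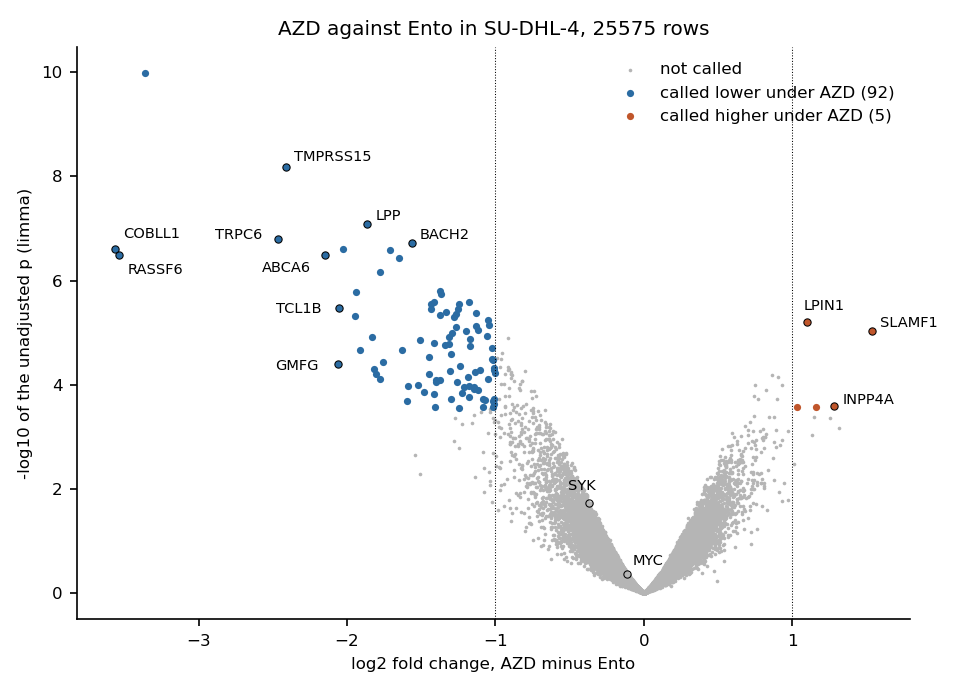
Each point is 1 of 25575 rows of the table, with the log2 fold change of AZD minus Ento in SU-DHL-4 on the x axis and -log10 of the unadjusted limma p on the y axis. The 92 genes called lower under AZD (blue) reach -3.56 at COBLL1, the 5 called higher (orange) reach 1.54 at SLAMF1, and SYK and MYC lie among the rows that were not called (grey). Black rings mark a selection of the genes named in the text.

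The genes called were mostly protein-coding, with 88 of 97 (90.7%) against 73.7% of all rows, and 6 were long non-coding RNAs. None of the 1570 microRNA rows was called. The called genes had a median level of 6.13 over the SU-DHL-4 arrays, against 4.99 over all rows, and 20 of the 97 lay under the median level of all rows.

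The windows upstream of 5 of the called genes are shown to place the contrast in the genome: the largest differences (COBLL1 and RASSF6), a repressor and an adhesion protein with a match to the cyclic AMP response element (BACH2 and LPP), and a gene of the opposite direction (SLAMF1). Each is the 250 bases before the first start that RefSeq lists for the gene (GRCh38.p14), read 5′ to 3′ on the strand of the gene. COBLL1 lies on the minus strand at chr2:164842077-164842326, RASSF6 on the minus strand at chr4:73620632-73620881, BACH2 on the minus strand at chr6:90296844-90297093, LPP on the plus strand at chr3:188153648-188153897 and SLAMF1 on the minus strand at chr1:160647045-160647294. Capitals mark a match, on either strand, to CCAAT in COBLL1, to CCAAT and to the FOXO motif TGTTTAC (read here as its reverse complement) in RASSF6, and to the cyclic AMP response element TGACGTCA in BACH2 and LPP.
COBLL1: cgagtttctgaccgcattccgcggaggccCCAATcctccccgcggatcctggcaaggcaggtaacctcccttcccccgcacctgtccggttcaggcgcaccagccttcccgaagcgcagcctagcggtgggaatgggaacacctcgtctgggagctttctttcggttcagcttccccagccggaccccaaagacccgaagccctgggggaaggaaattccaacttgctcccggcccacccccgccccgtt
RASSF6: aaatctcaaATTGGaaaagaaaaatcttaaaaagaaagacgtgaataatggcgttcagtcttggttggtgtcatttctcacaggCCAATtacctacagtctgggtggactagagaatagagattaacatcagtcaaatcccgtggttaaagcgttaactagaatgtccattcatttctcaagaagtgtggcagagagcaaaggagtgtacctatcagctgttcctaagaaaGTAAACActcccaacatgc
BACH2: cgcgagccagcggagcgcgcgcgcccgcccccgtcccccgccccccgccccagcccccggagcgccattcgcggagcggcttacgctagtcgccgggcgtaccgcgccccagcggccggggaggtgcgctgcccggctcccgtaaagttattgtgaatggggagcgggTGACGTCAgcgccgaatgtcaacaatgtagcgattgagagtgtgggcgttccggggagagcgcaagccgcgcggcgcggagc
LPP: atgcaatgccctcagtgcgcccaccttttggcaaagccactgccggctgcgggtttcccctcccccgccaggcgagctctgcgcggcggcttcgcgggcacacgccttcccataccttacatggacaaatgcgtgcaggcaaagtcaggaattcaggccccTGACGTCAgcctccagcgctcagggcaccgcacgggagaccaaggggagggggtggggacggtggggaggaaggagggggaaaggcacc
SLAMF1: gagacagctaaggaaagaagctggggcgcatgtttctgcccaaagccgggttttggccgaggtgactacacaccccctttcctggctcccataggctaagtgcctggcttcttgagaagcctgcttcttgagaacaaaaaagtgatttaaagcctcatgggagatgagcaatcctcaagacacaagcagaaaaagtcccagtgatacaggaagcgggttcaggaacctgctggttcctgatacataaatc
The SLAMF1 window held none of the motifs searched. RefSeq gave such a window for 74 of the called genes and for 17249 symbols of the table. TGTTTAC was found in 7 of the 74 (9.46%), those of ABCA6, JAML, KLRC3, OTUD1, PLEKHG7, RASSF6 and TMPRSS15, against 2.49% of all windows. TGACGTCA was found in 3 (4.05%), those of BACH2, DUSP1 and LPP, against 2.23%. CACGTG, the E-box bound by MYC, was found in 7 (9.46%) against 7.43%, CCAAT in 17 (23%) against 34.3%, and the E2F motifs TTTCGCGC and TTTGGCGC in 0 against 1.23%. These are counts of letters in windows of equal length, without a test, and no motif searched overlaps another.

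The largest differences were those of COBLL1 and RASSF6, an actin-binding protein of the cordon-bleu family and a scaffold protein with a Ras association domain. COBLL1 stood at 6.96, 6.93 and 7.23 on the Ento arrays and at 2.87, 4.64 and 2.94 on the AZD arrays. All Ento arrays lay far above all AZD arrays, and AZD replicate 2 was the highest of its group. The difference was -3.56 ± 0.35 (SE), an 11.8-fold lower level (adjusted p = 8.33e-04). RASSF6 stood at 6.32, 4.79 and 7.05 under Ento and at 2.44, 2.54 and 2.56 under AZD. Here the spread was on the Ento side (SD 1.15 against 0.07), and the lowest Ento array was still above every AZD array. The difference was -3.54 ± 0.36 (adjusted p = 8.38e-04). The AZD levels of both genes reach the lower end of the table, and without a detection value per array the size of these differences is uncertain. The DMSO mean lay between those of the agents for both genes, at 6.05 for COBLL1 and 4.64 for RASSF6. AZD minus DMSO was -2.57 for COBLL1 (adjusted p = 0.031) and -2.12 for RASSF6 (adjusted p = 0.04), and Ento minus DMSO was 0.99 (adjusted p = 0.49) and 1.41 (adjusted p = 0.31), short of the threshold. The contrasts with DMSO share arrays with each other and with the direct contrast, and they are given only as values beside it. The 10 RASSF family and related members listed with these 2 genes were not called, and the list of 12 had a median of -0.19.

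TMPRSS15, LPP and BACH2 differed with much smaller errors, and in each the Ento arrays stood above the DMSO arrays while the AZD arrays overlapped them. TMPRSS15, the intestinal protease that activates trypsinogen, read 5.11, 4.98 and 3.95 under Ento and 2.19, 2.69 and 1.91 under AZD, with a DMSO mean of 2.61. Every Ento array was above every AZD array. The difference was -2.42 ± 0.17 (adjusted p = 8.47e-05), and Ento minus DMSO was 2.07 (adjusted p = 5.0e-04) while AZD minus DMSO was -0.34 (adjusted p = 0.48). Its level under AZD and DMSO is at the lower end of the table, and no detection value per array was used to tell whether it was expressed there. LPP, a LIM domain protein of focal adhesions, read 9.64, 9.90 and 9.63 under Ento and 7.81, 8.13 and 7.64 under AZD. The difference was -1.87 ± 0.17, a 3.64-fold lower level (adjusted p = 6.99e-04). BACH2, a repressor that keeps B cells from turning into plasma cells, read 8.98, 9.32 and 8.89 under Ento and 7.41, 8.01 and 7.08 under AZD. The groups were apart by more than the spread within them, with a difference of -1.56 ± 0.15 (adjusted p = 8.33e-04), a DMSO mean of 7.74 and an Ento+AZD mean of 8.91. For these 3 genes the levels under Ento+AZD were nearer to Ento than to AZD.

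TRPC6, a calcium-permeable channel opened by diacylglycerol, was lower by -2.47 ± 0.24 (adjusted p = 8.33e-04), with Ento arrays at 6.93, 6.90 and 6.41 and AZD arrays at 4.11, 4.80 and 3.93. ABCA6, a transporter of the ABC family, differed by -2.15 and JAML, a junctional adhesion molecule of leukocytes, by -2.03. CEACAM1, an adhesion receptor with inhibitory tails, differed by -1.65 and CHRNA6, a subunit of nicotinic acetylcholine receptors, by -1.78. GNB3, a beta subunit of G proteins, was among the genes whose DMSO level matched Ento: its mean was 7.91 under DMSO, 8.03 under Ento, 6.66 under AZD and 6.83 under Ento+AZD. TRANK1 differed by -1.71, the intergenic RNA LINC01054 by -1.94 and EEF1DP3, a pseudogene of an elongation factor, by -1.37. The probes of a row cannot be traced in the table, so that a pseudogene or a near-identical family member may share signal with its relatives. Adjusted p-values of these 8 genes from ABCA6 to EEF1DP3 lay between 8.33e-04 and 0.00306, and all of them were called in each fit with 1 array left out.

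Other called genes with known roles in lymphocytes, chosen for naming after their values were seen, were again lower under AZD. CLEC2D, the ligand of an inhibitory receptor on NK cells, read 10.42, 10.09 and 10.15 under Ento and 9.12, 9.09 and 8.72 under AZD, a difference of -1.25 ± 0.15 (adjusted p = 0.00386). TCL1A and TCL1B, coactivators of the kinase AKT, differed by -1.05 (adjusted p = 0.00789) and -2.06 (adjusted p = 0.00409). CFLAR, the inhibitor of caspase-8 activation, read 8.38, 8.50 and 8.29 under Ento and 7.01, 7.22 and 6.94 under AZD, a difference of -1.33 ± 0.17 (adjusted p = 0.00443). PDE4B, which degrades cyclic AMP, differed by -1.44, SLC2A5, the fructose transporter, by -1.18, and RGCC, a cell cycle regulator induced by complement, by -1.37. AFF3, a lymphoid member of the AF4 family of elongation factors, differed by -1.17 and CD69, an activation marker that holds lymphocytes in tissue, by -1.45. For AFF3 the lowest Ento array, at 8.61, lay just above the highest AZD array, at 8.55. TCL1A was called in 3 of the 6 fits with 1 array left out, AFF3 in 3 and CD69 in 1, while CLEC2D, TCL1B, CFLAR, PDE4B, SLC2A5 and RGCC were called in all 6. AFF3 and CD69 were not called without the replicate number in the model.

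The 5 genes called higher under AZD shared no family. SLAMF1, a costimulatory receptor of lymphocytes, read 2.90, 3.02 and 3.16 under Ento and 4.29, 4.18 and 5.23 under AZD, a difference of 1.54 ± 0.21 (adjusted p = 0.00656). Its DMSO mean of 3.85 lay between the agents, and its Ento+AZD mean of 2.99 was at the Ento level. LPIN1, a phosphatidate phosphatase of lipid synthesis, read 8.13, 8.11 and 7.76 under Ento and 8.92, 9.26 and 9.13 under AZD, a difference of 1.10 ± 0.15 (adjusted p = 0.00536). INPP4A, a phosphoinositide phosphatase, differed by 1.28 (adjusted p = 0.0491), DENND1B, an exchange factor for Rab GTPases, by 1.16 (adjusted p = 0.0491), and MYOM2, a muscle myomesin, by 1.03 (adjusted p = 0.0491). DENND1B stood at a mean of 4.86 in DMSO, 4.40 under AZD and 3.24 under Ento. SLAMF1 was called in 5 of the 6 fits with 1 array left out, LPIN1 in 4, INPP4A and MYOM2 in 1 and DENND1B in 0. DENND1B and MYOM2 were not called without the replicate number in the model, where 3 genes were called higher. SLAMF1, DENND1B and INPP4A had mean levels of 3.61, 3.98 and 4.46 over the SU-DHL-4 arrays, under the median of 4.99 of all rows. With rows under the median level left out, 2 genes were called higher. LINC02909 (1.14, adjusted p = 0.0962) and GPR137B (1.01, adjusted p = 0.196) had arrays that did not overlap but were short of the threshold.

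**Figure D2:**
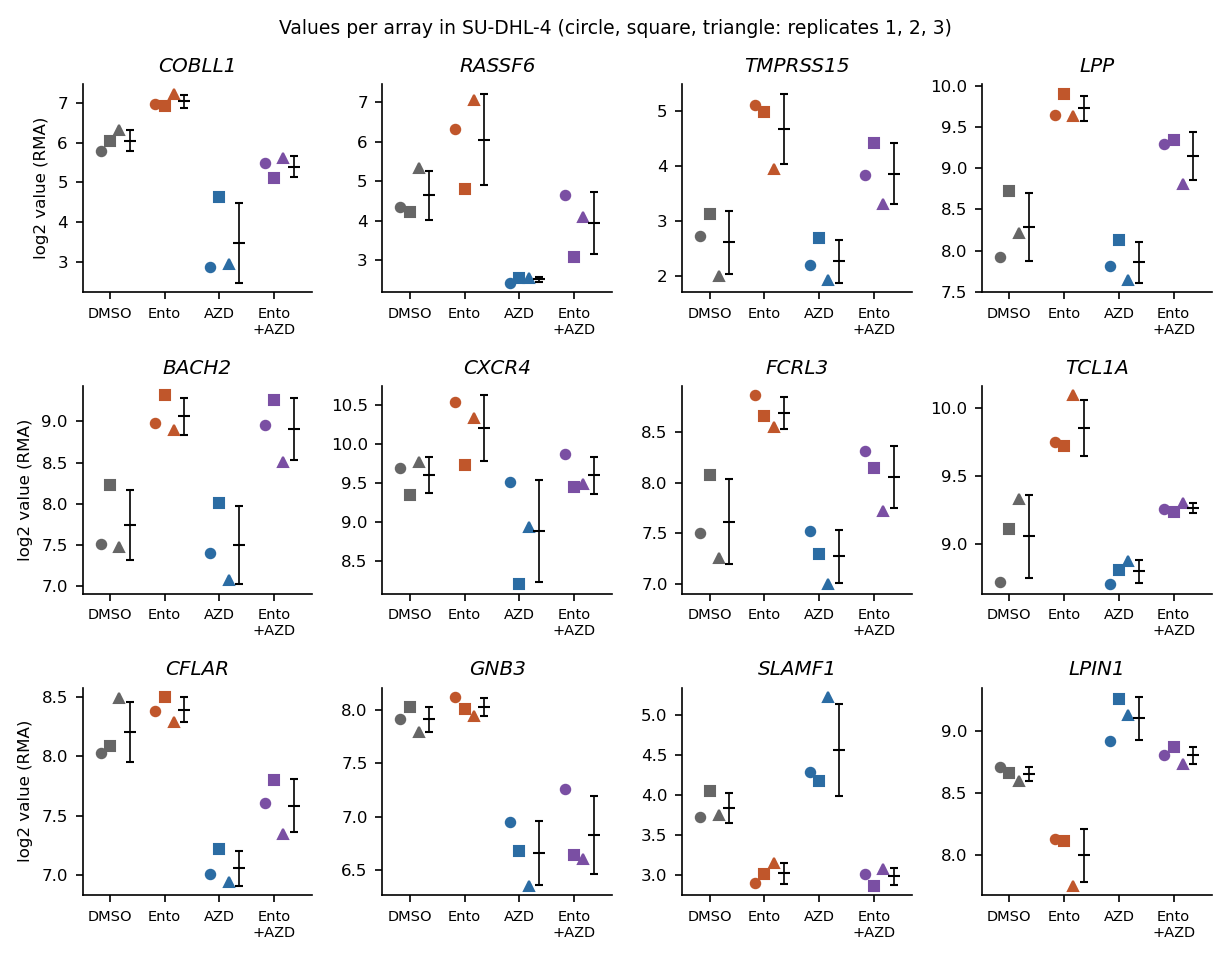
Log2 values (y axis) of 12 genes on the 12 SU-DHL-4 arrays, by treatment (x axis), with the mean and SD of 3 arrays as a black bar beside the points. COBLL1, RASSF6, CFLAR and GNB3 have a DMSO mean above those of both treatments with AZD, TMPRSS15, LPP, BACH2 and FCRL3 have a DMSO mean nearer AZD than Ento, and SLAMF1 and LPIN1 have their highest mean under AZD alone.

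The DMSO means give a level beside which each difference can be placed, and they do not by themselves show from which agent it came. Of the 92 genes called lower, the DMSO mean lay between the AZD mean and the Ento mean in 81, at or above the Ento mean in 9 and at or below the AZD mean in 2. With the distance from AZD to Ento divided into 3 equal parts, a split made after the values were seen, DMSO lay in the part next to Ento or past it in 38 genes. It lay in the middle part in 30 genes and in the part next to AZD or past it in 24. COBLL1, CFLAR, GNB3 and CLEC2D are examples of the first kind and TMPRSS15, LPP and BACH2 of the last. The median change against DMSO was -0.81 for AZD and 0.59 for Ento over the 92 genes, and -0.21 for Ento+AZD. These numbers describe genes chosen for the difference itself and carry no test. Under Ento+AZD, 51 genes were nearer the AZD mean and 41 nearer the Ento mean, with a median position of 0.437 on a scale from 0 (AZD) to 1 (Ento). AIM2, a sensor of cytosolic DNA, AFF3 and BACH2 stayed near or above the Ento level under the combination, and KIAA0040 and EPSTI1 stayed at or below the AZD level, with means of 9.25 and 3.83 under Ento+AZD against 9.30 and 4.07 under AZD.

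**Figure D3:**
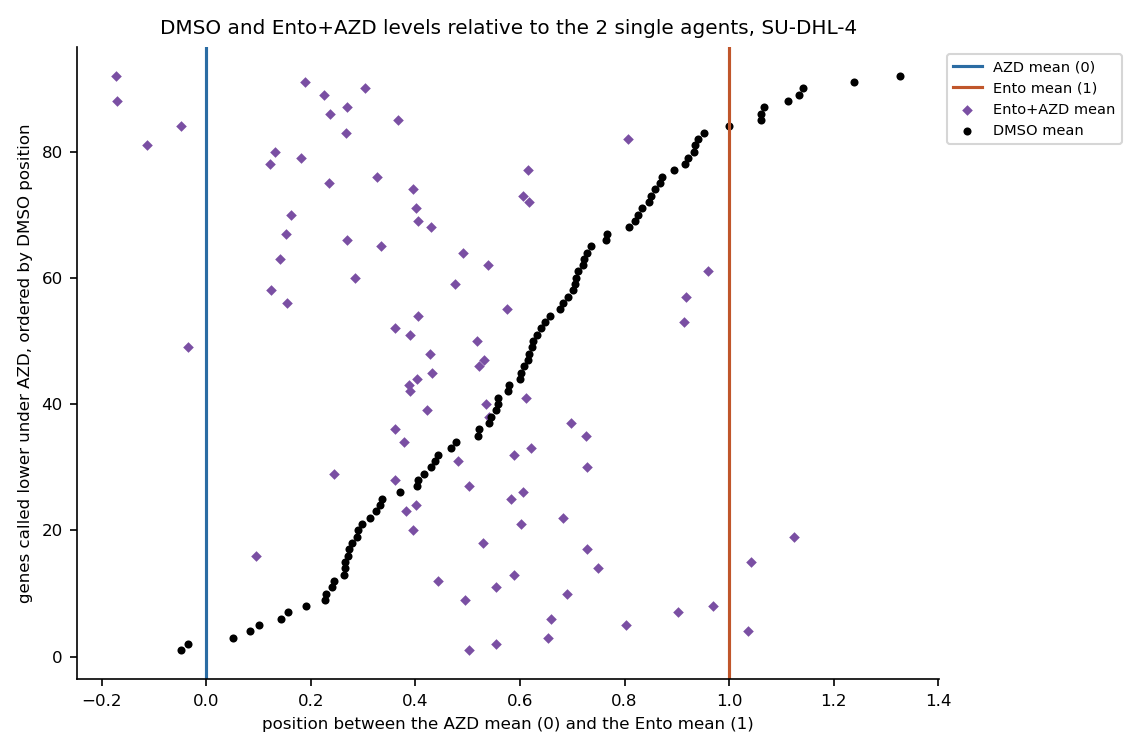
For each of the 92 genes called lower under AZD (1 per step of the y axis, ordered by the DMSO position), the x axis gives where the DMSO mean (black) and the Ento+AZD mean (purple) lie between the AZD mean (0) and the Ento mean (1). DMSO runs from the AZD side to the Ento side without a gap, and the combination lies nearer AZD in 51 genes and nearer Ento in 41.

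Among 19 measured transcription regulators of the germinal centre state, only BACH2 was called. The median difference of the list was -0.37 against -0.02 over all rows, and 8 of the 19 (42.1%) had all AZD arrays below all Ento arrays, against 6.3% of all rows. FOXP1 read 9.33, 9.39 and 9.25 under Ento and 8.44, 8.87 and 8.54 under AZD, a difference of -0.71 (adjusted p = 0.0543). POU2AF1, the coactivator of octamer factors, differed by -0.75 (adjusted p = 0.0633) and ETS1 by -0.64 (adjusted p = 0.0962), with arrays that did not overlap. PAX5, the factor of B-cell identity, had -0.38 (adjusted p = 0.351). BCL6, the central repressor of the state, had 0.01 (adjusted p = 0.991). LMO2 was the member with the arrays apart in the other direction, at 0.97 (adjusted p = 0.373), with AZD arrays from 6.38 to 7.55 and Ento arrays from 5.39 to 6.31.

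Of 14 receptors and regulators of B-cell positioning, CXCR4 was called. CXCR4, the receptor for CXCL12 that keeps cells in the dark zone, read 10.54, 9.74 and 10.34 under Ento and 9.52, 8.21 and 8.94 under AZD. The difference was -1.31 ± 0.19 (adjusted p = 0.00789), with the lowest Ento array 9.74 and the highest AZD array 9.52, and the call held in 3 of the 6 fits with 1 array left out and was lost without the replicate number in the model (adjusted p = 0.0893). The list had a median of -0.38, with 6 of 14 members (42.9%) having AZD arrays below Ento arrays and 0 above, against 6.3% and 5.18% of all rows. CXCR5, the receptor for the follicular chemokine CXCL13, had -0.73 (adjusted p = 0.0641), S1PR2, which confines cells to the germinal centre, -0.57 (adjusted p = 0.121), and GPR183, a receptor for oxysterols, -1.54 (adjusted p = 0.159). For GPR183 the AZD arrays spread from 2.96 to 4.55 and the Ento arrays from 4.93 to 5.52.

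The 23 measured genes of the relay from the B-cell receptor had a median difference of -0.20, with 4 (17.4%) having AZD arrays below Ento arrays and 0 above, against 6.3% and 5.18% of all rows. None of the 23 was called, against 0.379% of all rows. BLNK, the adaptor that SYK phosphorylates, read 9.0, 8.89 and 8.80 under Ento and 8.12, 8.35 and 8.05 under AZD. Its difference of -0.72 ± 0.14 had an adjusted p of 0.0366 but was under the fold change minimum. The kinase BLK had -0.55 (adjusted p = 0.107) and CD79B, a signalling chain of the receptor, -0.42 (adjusted p = 0.316). Of 12 inhibitors of the receptor, FCRL3 was called: it read 8.86, 8.66 and 8.55 under Ento and 7.52, 7.30 and 7.0 under AZD, a difference of -1.41 ± 0.17 (adjusted p = 0.00386), and the list had a median of -0.36. In that list 2 of 12 (16.7%) had AZD arrays below Ento arrays and 0 above, and 1 was called, beside the same shares of all rows. CD72 had -0.73 (adjusted p = 0.0962).

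Of 16 immediate early genes, JUN was called at -1.12 ± 0.15 (adjusted p = 0.00655), and the median of the list was 0.03. Over all rows 0.379% were called. In this list 1 of 16 (6.25%) had AZD arrays below Ento arrays and 0 above, against 6.3% and 5.18% of all rows. JUN stood at 6.75, 4.86 and 6.51 under Ento and at 5.88, 3.55 and 5.34 under AZD, so that the groups overlapped while each numbered difference was negative, and replicate 2 was low in both. The call held in 4 of the 6 fits with 1 array left out, but it rested on the replicate number in the model, without which the adjusted p was 0.721. FOS had -0.31 (adjusted p = 0.552). DUSP1, a phosphatase of MAP kinases, had -1.01 (adjusted p = 0.0466) with the same low replicate 2, at 5.23 under Ento and 4.75 under AZD, and was called in 2 of the 6 fits and not without the replicate number (adjusted p = 0.732). The list of 11 MAP kinase feedback inhibitors had a median of -0.05 and the 17 NF-kappaB targets one of -0.11, with 0 called among the latter. Of the 11, 0 had AZD arrays below Ento arrays and 1 (9.09%) had them above. Of the 17, 1 (5.88%) had them below and 0 above. The 21 genes linked to FOXO factors and PI3K had 0 called and a median of -0.35, and 4 of them (19%) had AZD arrays below Ento arrays and 0 above, against 6.3% and 5.18% of all rows.

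Among 21 interferon-stimulated genes ISG20, a nuclease for RNA, was called at -1.20 ± 0.17 (adjusted p = 0.00656), with Ento arrays at 7.65, 7.59 and 7.42 and AZD arrays at 6.41, 6.80 and 5.86. OAS1, a sensor of double-stranded RNA, had -0.94 (adjusted p = 0.0263), under the fold change minimum, and OAS2 had -0.73 (adjusted p = 0.207). The list had a median of -0.17, with 6 members (28.6%) having AZD arrays below and 2 (9.52%) above, against 6.3% and 5.18% of all rows. ISG20 was called in 3 of the 6 fits with 1 array left out. In the SLAM family of 10 receptors, SLAMF1 was called higher, while SLAMF6 had -0.59 (adjusted p = 0.116) and CD84 -0.86 (adjusted p = 0.178). Over all rows 0.0196% were called higher. The 10 had a median of -0.11, with 2 (20%) having AZD arrays above Ento arrays and 2 (20%) below.

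The licensing, mitotic, E2F and cyclin lists had medians below 0 and 0 called members. The 16 genes of replication licensing and the CMG helicase had a median of -0.44 and ranged from -0.89 to -0.09, all below 0. MCM5, a subunit of that helicase, read 9.28, 9.07 and 9.58 under Ento and 8.50, 8.15 and 8.62 under AZD, a difference of -0.89 ± 0.15 (adjusted p = 0.0209), under the fold change minimum. It was the 1 member of 16 (6.25%) whose AZD arrays lay below the Ento arrays, against 6.3% of all rows. The 21 mitotic kinases and kinetochore genes had a median of -0.50, again all below 0, and in 0 of 21 did the arrays separate, against 6.3% below and 5.18% above over all rows. Their mean level was 8.86, 7.51 and 8.94 on the Ento arrays and 8.09, 7.57 and 8.31 on the AZD arrays, so that Ento replicate 2 lay below all AZD arrays. CENPF, a kinetochore protein, had its lowest array in replicate 2 of each agent, with 9.28, 7.86 and 9.41 under Ento and 8.28, 7.49 and 8.51 under AZD (adjusted p = 0.34). The part of replicate 2 in these medians was not tested. The 13 E2F family genes had a median of -0.29, the 15 cyclins and CDC25 phosphatases one of -0.38 and the 7 CDK inhibitors one of 0.18, with 0 called in each. CDKN1A, the inhibitor p21, had 0.56 (adjusted p = 0.238).

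The targets of the agents and the genes tied to them did not pass the threshold. SYK read 9.43, 9.54 and 9.23 under Ento and 8.96, 9.29 and 8.83 under AZD, a difference of -0.37 (95% interval of the fit -0.67 to -0.07, adjusted p = 0.388). MYC had -0.11 (interval -0.41 to 0.19), with all 6 arrays between 9.23 and 9.48. BRD2 had -0.04 (-0.39 to 0.30) and BRD3 -0.20 (-0.53 to 0.14). HEXIM1, the inhibitor of P-TEFb that often rises under BET inhibitors, had 0.20 (-0.17 to 0.56). The intervals leave room for differences of up to about that size and do not show equality. The 15 BET and P-TEFb genes had a median of -0.05, the 12 genes of the MYC, MAX and MXD network -0.06 and the 81 cytosolic ribosomal proteins -0.01, with 0 called in each of the 3 lists, and the 15 BCL2 family genes had -0.14 with 0 called.

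**Figure D4:**
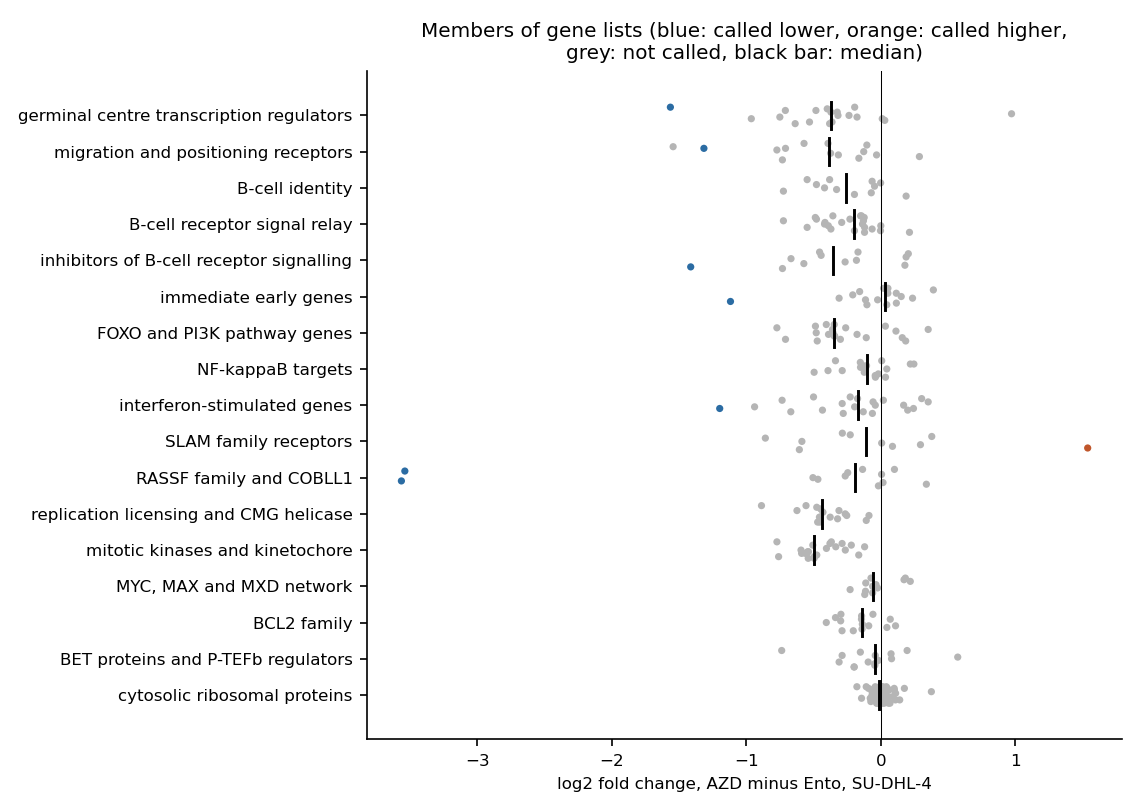
Each point is a member of a gene list at its log2 fold change of AZD minus Ento in SU-DHL-4 (x axis), and the black bars are medians. Medians of the germinal centre, positioning, licensing and mitotic lists lie between -0.37 and -0.50 and that of the ribosomal proteins at -0.01. The called members (blue and orange) lie beyond 1 in size by the threshold itself.

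In DG-75 the same contrast, on arrays that the SU-DHL-4 contrast does not use, called 88 rows (0.344%), 84 of them lower under AZD and 4 higher. 10 genes were called in both lines, which is 10.3% of the SU-DHL-4 calls and 11.4% of the DG-75 calls, and all were lower under AZD. Among them were CHRNA6, SLC2A5, CLEC2D, RGCC, SLC6A16, TCL1A, KIAA0040, CILK1 and the antisense RNA IFNG-AS1. CLEC2D read 10.60, 10.77 and 10.57 on the Ento arrays of DG-75 and 9.07, 9.63 and 9.38 on its AZD arrays, a difference of -1.29 ± 0.14 (adjusted p = 0.0129) beside -1.25 in SU-DHL-4. TCL1A differed by -1.12 (adjusted p = 0.0223) beside -1.05. Of the 92 genes called lower in SU-DHL-4, 75 (81.5%) had a negative difference in DG-75, with a median of -0.29, against 59% of all rows. Over all rows the signs of the lines were equal in 56.6%. In 35 of the 92 (38%) the 3 AZD arrays of DG-75 lay below its 3 Ento arrays, against 15.2% of all rows. In the other direction, 22 of the 84 genes called lower in DG-75 (26.2%) had the AZD arrays of SU-DHL-4 below its Ento arrays, against 6.3%. The correlation of the differences across all genes was 0.225, with genes as points that are not independent. The DG-75 count varied from 1 to 310 when 1 array was left out, at 1 without AZD replicate 1, Ento replicate 1 or Ento replicate 2, 3 without AZD replicate 3, 56 without AZD replicate 2 and 310 without Ento replicate 3.

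The lines differed in the contrast itself at 32 rows (0.125%), in 20 of which AZD minus Ento was more negative in SU-DHL-4 and in 12 more positive. TMPRSS15 read 1.86, 2.30 and 2.14 on the Ento arrays of DG-75 and 1.60, 1.85 and 2.02 on its AZD arrays, near the low SU-DHL-4 level. The difference between the lines was -2.13 ± 0.23 (adjusted p = 7.49e-04). LPP read 10.88, 10.94 and 10.81 under Ento and 10.72, 10.62 and 10.75 under AZD in DG-75, higher than in SU-DHL-4 and without its step, and the lines differed by -1.69 ± 0.20 (adjusted p = 0.00156). HLA-DOB, a modulator of peptide loading onto MHC class II, had opposite signs: -0.70 in SU-DHL-4 (adjusted p = 0.0774) and 0.89 in DG-75 (adjusted p = 0.0295), a difference of -1.59 (adjusted p = 0.00156). TRPC6 (-2.29), FCRL3 (-1.68) and LINC01781 (-1.33) also differed between the lines, each with an adjusted p of 0.0115. Their DG-75 means under Ento and AZD were low, at 3.4 and 3.2 for TRPC6, 4.1 and 4.4 for FCRL3, and 2.9 and 3.1 for LINC01781. Without a detection value per array it is uncertain whether these genes were expressed in DG-75. SLAMF1 was called in SU-DHL-4 at 1.54 and had -0.02 in DG-75, where all 6 arrays lay between 2.71 and 3.05, and the lines differed by 1.56 (adjusted p = 0.034). Among the positive differences with the smallest p, HVCN1, a proton channel, had an AZD minus Ento difference of -1.35 in DG-75 and 0.54 in SU-DHL-4, and CYP26A1, which degrades retinoic acid, one of -2.22 and 0.39. TDRD7 (1.79), FOXP2 (1.43) and AP3M2 (1.2) completed the 5 of that direction. In SU-DHL-4, CYP26A1 stood at means of 2.12 under Ento and 2.51 under AZD, and TDRD7 at 2.19 and 2.94. Those levels are at the lower end of the table, and whether both genes were expressed there is uncertain. For COBLL1 (-1.92, adjusted p = 0.317), RASSF6 (-2.40, adjusted p = 0.0591) and BACH2 (-1.29, adjusted p = 0.051) a difference between the lines was not shown. The count fell to between 4 and 17 when 1 numbered array was left out of both lines, at 6, 17 and 5 without AZD replicate 1, 2 and 3 and 4, 11 and 14 without Ento replicate 1, 2 and 3.

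**Figure D5:**
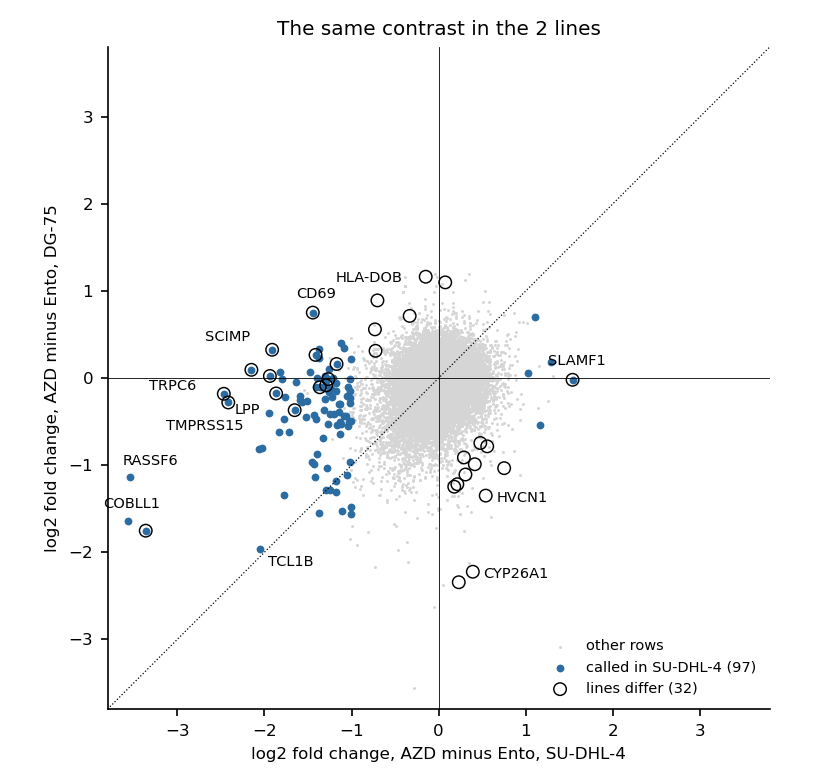
Log2 fold change of AZD minus Ento in SU-DHL-4 (x axis) against the same in DG-75 (y axis) for 25575 rows, with the 97 genes called in SU-DHL-4 in blue and the 32 rows where the lines differed ringed. TMPRSS15, LPP and TRPC6 lie near 0 in DG-75, TCL1B lies on the dotted line of equal values, and CYP26A1 and HVCN1 lie below 0 in DG-75 and above 0 in SU-DHL-4.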

How the data were processed

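RNA was hybridised to Clariom D arrays, a human whole-transcriptome platform, with 3 biological replicates per treatment and line. The deposited table holds log2 values, which the authors obtained by RMA and limma with affycoretools and an annotation package assigning probes to genes. RMA equalizes the intensity distributions of the arrays, so that a shift of all genes together cannot be seen. The genome build and probe identifiers are not given in the sources used here. The number of arrays limits the precision.

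Linear models were fitted with limma 3.58.1 under R 4.3.3 to the 12 arrays of a line and moderated by eBayes, with the 4 treatments and the replicate number as a batch term, since the study's model has a batch term whose meaning it does not state. The Benjamini-Hochberg adjustment ran over 25575 rows. Called genes had an adjusted p below 0.05 and a log2 fold change of more than 1 in size. The difference between the lines came from 1 fit of 24 arrays. Other normalizations, filters, models and left-out arrays were tried as alternatives. The fits were tested on simulated data. Values after ± are SE of the fit unless SD is written.

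Named were up to 15 called genes per direction by smallest p, up to 4 members per gene list, drug targets, up to 5 genes per direction for the difference between the lines, and genes short of the threshold where few were called. Some genes of this rule, 1 of the called genes among them, are not reported here and stay in every count. Genes outside the rule were chosen after their values were seen. The comparison and the lists were chosen with earlier results of these data known. A symbol with several rows is represented by the row with the highest mean. Symbols were matched to RefSeq names for 24636 as current and 331 as older names, and 194 were not matched.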

Additional observations from a re-analysis of the deposited data

Results flagged for a closer look

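The contrast of AZD with Ento differed between the lines, by a test of the difference itself, at 32 rows. Among the named genes, those that SU-DHL-4 had more negative were TMPRSS15 (log2 difference between the lines -2.13), TRPC6 (-2.29), ABCA6 (-2.24), SCIMP (-2.24), CD69 (-2.20), LINC01054 (-1.96), LPP (-1.69), FCRL3 (-1.68), HLA-DOB (-1.59), LINC01781 (-1.33), CD72 (-1.29), CEACAM1 (-1.28), GNB3 (-1.26), ABLIM1 (-1.25) and OTUD1 (-1.21). SCIMP, an adaptor protein of antigen-presenting cells, had an AZD minus Ento difference of -1.91 in SU-DHL-4 and stood at 9.53 to 10.03 on all 6 DG-75 arrays. CD69 had 0.75 in DG-75 (adjusted p = 0.209) beside -1.45 in SU-DHL-4. More positive in SU-DHL-4 were CYP26A1 (2.62), HVCN1 (1.89), TDRD7 (1.79), SLAMF1 (1.56), FOXP2 (1.43) and AP3M2 (1.2). Several of these genes were low in 1 line. In DG-75, ABCA6 had means of 2.53 and 2.63 and LINC01054 of 3.61 and 3.63 under Ento and AZD. TMPRSS15, TRPC6, FCRL3, LINC01781 and SLAMF1 were also low there, as were CYP26A1 and TDRD7 in SU-DHL-4. Whether these genes were expressed at those levels was not tested. No test for a single array that stands apart was run on groups of 3.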

How the results depend on the processing

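In SU-DHL-4 the count of 97 called genes became 8 with the 6 single-agent arrays alone and 51 when limma's treat tested for more than a 1.2-fold change. It stayed within 1.5 times of 97 under the other settings, with 65 and no replicate block, 100 with all 24 arrays in 1 fit, 81 without rows under the median level, 74 with quantile normalization, 104 with array medians subtracted, 115 with a trended robust prior variance, 145 with no fold change minimum and 97 with 1 row per symbol. Leaving out 1 array or 1 replicate number gave 5 to 149. Without replicate number 1 the count was 8, without number 2 it was 112 and without number 3 it was 5, and 2 genes, TMPRSS15 among them, were called in all 9 of the fits that left out arrays.

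In DG-75 the count of 88 became 0 with 6 arrays, 155 with all 24 arrays, 49 with quantile normalization, 48 with array medians subtracted, 170 with a trended robust prior variance, 144 with no fold change minimum and 2 with treat, and 0 to 310 when arrays were left out. The 32 genes differing between the lines became 13 with no replicate block, 52 with quantile normalization, 69 with a trended robust prior variance and 12 with treat, and 0 to 17 when arrays were left out. Positive differences were 37.5% of the 32, and 25% with quantile normalization. They were 1 of 6, 2 of 17 and 0 of 5 without AZD replicate 1, 2 and 3. Without Ento replicate 1, 2 and 3 they were 0 of 4, 1 of 11 and 8 of 14, so that the split by direction depended on single arrays. The cause was not tested in any of these cases.

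Equally numbered AZD and Ento arrays of SU-DHL-4 deviated from their group means with correlations of -0.111, 0.0848 and 0.208, so that not every equally numbered pair deviated together. Of the 97 calls, 65 held with no replicate block, and the others rested on the replicate number as a batch term. With no replicate block, the named genes that lost their call were JUN (adjusted p = 0.721), DUSP1 (0.732), MPEG1 (0.559), PLEKHG7 (0.285), AFF3 (0.233), DENND1B (0.194), CD69 (0.119), CXCR4 (0.0893), AIM2 (0.0893), SCIMP (0.0683), MYOM2 (0.0561) and EPSTI1 (0.0525). No called gene named here changed its sign under any setting. BRD2, which was not called, had 0.069 with quantile normalization, 0.09 without AZD replicate 1, 0.08 without Ento replicate 1 and from -0.18 to 0.15 over the fits without a replicate number. BCL6, which was not called either, had from -0.010 to 0.043 in the fits with arrays left out. Without a detection value per array, low log2 values have no lower limit of measurement.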

Other observations

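Of 466 measured zinc finger genes with a symbol of ZNF and a number alone, 0 were called, and 48 (10.3%) had all AZD arrays below all Ento arrays in SU-DHL-4 and 13 had them above, against 6.3% and 5.18% of all rows, and the median difference was -0.11. ZNF106 read 9.87, 9.99 and 9.83 under Ento and 8.99, 9.01 and 8.79 under AZD, a difference of -0.97 ± 0.16 (adjusted p = 0.0191), and ZNF432 had -0.89 (adjusted p = 0.0227), both under the fold change minimum. ZNF280D, whose symbol is of another form, was called lower at -1.52 ± 0.27 (adjusted p = 0.0265). The 1245 long intergenic RNAs had 3 called members, all lower, and a median of 0.02. The 1085 antisense RNAs had 1 called member, IFNG-AS1, and over all rows 0.379% were called. LPP-AS1, the antisense neighbour of LPP, had -0.94 (adjusted p = 0.0366), and whether its probes also record LPP cannot be traced. The 61 replication-dependent histone genes had 0 called and a median of -0.20, and the 20 sterol and fatty acid synthesis genes 0 called and 0.05.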
